A study of Mus musculus with 18 samples.

Results

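The average effect of quercetin over skeletal muscle, white fat and brown fat was estimated from all 18 RNA sequencing libraries of the series. Of these, 9 were from quercetin-treated and 9 from vehicle-treated C57BL/6J mice. Membership followed 1 rule: every library entered a single fit, in which each tissue kept its own level and 1 treatment term was common to the 3 tissues. The quercetin arm held 3 libraries of each tissue from mice gavaged with quercetin at 0.125 mg/kg, dissolved in 100 µL of PBS with 10% PEG400. The vehicle arm held 3 libraries of each tissue from mice gavaged with that solution alone. All are of 1 inbred strain, and the labels name no mutation or other agent. The white fat depot, the age and sex of the sequenced mice and how long they were treated are not stated by the labels. Libraries carry the numbers 1 to 3 within each arm and tissue. Whether equal numbers of 1 arm mark 1 mouse, and whether the libraries of a group came from separate mice, is not stated, so the p-values measure the spread between libraries.

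Quercetin is a plant flavonol that is studied as an antioxidant, as an inducer of the NRF2 stress response, as a ligand of the aryl hydrocarbon receptor and, together with dasatinib, as an agent against senescent cells. Skeletal muscle burns fat and glucose for contraction, white fat stores triglyceride and releases it in fasting, and brown fat burns it for heat through the uncoupling protein of its mitochondria. Feeding raises fat and sterol synthesis through the SREBP transcription factors, while fasting and glucocorticoids raise lipolysis, fatty acid use and, in muscle, protein breakdown through FoxO factors. The common term asks which transcripts differ on average over the 3 tissues. A gene can have a small p there although its tissue effects are unlike, so the tissue estimates are read beside it.

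Libraries held 8436308 to 12311345 counts in genes. Marker genes followed the labelled tissues, with exceptions. Fast-twitch muscle genes summed to 113200 to 203600 CPM, counts scaled to a common library total, in the muscle libraries, brown adipocyte genes to 3879 to 14830 CPM in the brown fat libraries and adipocyte genes to 1096 to 65090 CPM in white fat. Brown fat quercetin 3 held 45840 CPM of fast-twitch muscle genes, where the remaining brown fat libraries held 69.0 to 8032 CPM. White fat vehicle 2 held 1698 CPM of them, where the remaining white fat libraries held 60.2 to 130 CPM, and had the lowest adipocyte sum. That sum, 1096 CPM, was also below those of the muscle libraries, 2467 to 16870 CPM. Muscle quercetin 2 held 29790 CPM of 8 seminal vesicle genes, which each of the other libraries held at 0.584 CPM or less. T cell genes summed to 14.5 CPM in white fat quercetin 2 and 12.8 CPM in white fat vehicle 1, where the remaining white fat libraries held 813 to 1240 CPM. Those remaining libraries also held 4086 to 20440 CPM of B and plasma cell genes. White fat quercetin 2 and vehicle 1 had the highest adipocyte sums of white fat, 40040 and 65090 CPM, against 1096 to 28170 CPM in the others. Which white fat libraries are typical of the depot was not tested. White fat quercetin 2, white fat vehicle 1 and muscle quercetin 3 carry another flow cell, H7GKJDSXX, than the rest, H7H2WDSXX. The part of flow cell in the T cell values was not tested. In such bulk samples, fewer cells of a type and less RNA per cell cannot be told apart.

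The libraries numbered vehicle 1 stood apart in all 3 tissues at once. Of 16388 genes, 820 were at their highest of 6 libraries in vehicle 1 in muscle, in white fat and in brown fat, and 1004 were at their lowest there in each tissue. For each of the other 5 combinations of arm and number, 37 to 110 genes were highest and 24 to 71 lowest in all 3 tissues. The mean log2 CPM of 20 genes of the fasting and glucocorticoid response was highest in vehicle 1 in each tissue, at 8.75 in muscle, 7.92 in white fat and 7.31 in brown fat. The other 5 libraries of muscle lay between 6.55 and 7.40, those of white fat between 5.27 and 6.53, and those of brown fat between 5.82 and 6.97. Interferon-stimulated genes were lowest in vehicle 1, at 0.70, 2.13 and 1.41 in the same order of tissues, against 2.15 to 3.30, 4.99 to 5.54 and 2.77 to 7.90 in the other libraries. What sets vehicle 1 apart was not tested. Both values are given for lists that turn, or shrink by more than 1.5 times, without the 3 libraries of vehicle 1. The same holds for rule-named genes whose log2 fold change is printed with a standard error. Other rule-named genes, such as mt-Nd6, Pnpla2 and H2-Aa, turn or shrink so with no such pair given. Genes picked outside the naming rule have no such second value.

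**Figure D1:**
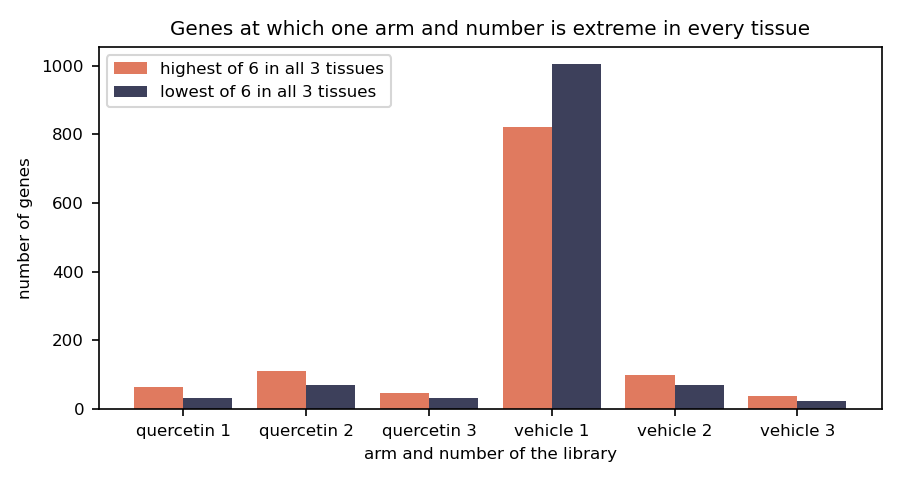
Number of genes (y axis) for which the libraries of 1 arm and number (x axis) were the highest (orange) or the lowest (dark) of the 6 libraries in all 3 tissues, out of 16388 genes. Vehicle 1 has 820 and 1004 such genes, and each of the other 5 has 110 or fewer.

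No gene passed the threshold for a common effect. In edgeR's quasi-likelihood test with Benjamini-Hochberg adjustment over 16388 genes, 0 passed in either direction (a share of 0%), and the smallest adjusted p was 0.801. DESeq2 and limma voom also gave 0 passing genes, and limma voom with library weights gave 5. At an unadjusted p under 0.05, edgeR counted 963 genes (5.88%), 378 higher (2.31%) and 585 lower (3.57%), and DESeq2 counted 1220. Without the vehicle 1 libraries edgeR counted 544 (3.24%), of which 232 were shared, or 24.1% of the 963 and 42.6% of the 544. Within the libraries of 1 flow cell, H7H2WDSXX, the common quercetin effect gave 0 passing genes and 560 at an unadjusted p under 0.05, and with flow cell as a term it gave 0 and 1075. Estimates were above 0 for 8520 genes (52.0%) and below 0 for 7868 (48.0%), and the median log2 fold change was 0.02. The arms did not overlap for 9.02% of genes in muscle, 4.66% in white fat and 6.30% in brown fat. In the same fit, 0 genes (0%) passed for any single tissue, and 3.26%, 2.29% and 2.54% had an unadjusted p under 0.05 in muscle, white fat and brown fat. The 3 tissue estimates had 1 sign for 6246 genes (38.1%), 3353 higher (20.5%) and 2893 lower (17.7%).

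The common term took a small share of the spread. Over all genes, tissue held 57.8% of the sum of squares of log2 CPM, the common treatment term 2.84%, treatment by tissue 2.60% and libraries within a group 36.8%. These shares rest on 2, 1, 2 and 12 degrees of freedom in that order, so their sizes are not directly comparable. The median 95% interval of a gene's common log2 fold change reached 0.67 to either side, 1.29 among the least expressed 25% of genes and 0.46 among the most expressed. For 8741 genes (53.4%) the whole unadjusted interval lay within 1 log2 unit of 0. Treating libraries of equal arm and number as correlated in limma voom gave a consensus correlation of 0.10, 0 passing genes and 579 at an unadjusted p under 0.05 (3.53%). Averaging the 3 tissues per arm and number before a limma test of 3 against 3 gave 0 passing genes and 328 at an unadjusted p under 0.05.

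Among the genes with a higher estimate, Sc5d had the smallest p. It encodes the sterol C5-desaturase, a late enzyme of cholesterol synthesis (ENSMUSG00000032018, chromosome 9, 42251595 to 42264256, minus strand, build GRCm38). In muscle it was at 34.4, 45.6 and 29.2 CPM with quercetin, against 15.2, 27.4 and 31.3 CPM with vehicle. In white fat it was at 31.1, 55.3 and 51.1 CPM with quercetin, against 21.9, 19.7 and 18.03 CPM with vehicle. In brown fat it was at 133.6, 99.6 and 57.1 CPM with quercetin, against 23.9, 59.7 and 49.4 CPM with vehicle. The arms did not overlap in white fat, and they overlapped in muscle and in brown fat. The common log2 fold change was 0.96 ± 0.22 (SE; edgeR adjusted p = 0.801), and 0.77 without vehicle 1. An exact permutation of the arms within tissues gave an unadjusted two-sided p of 0.001, where the smallest that 8000 relabellings can give is 0.00025. With each arm and number moved as a unit there are 20 relabellings, and the exact p of Sc5d was 0.1, the smallest they can give. Since Sc5d was picked for its small p in these same libraries, both permutation p-values describe it and add no separate support.

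**Figure D2:**
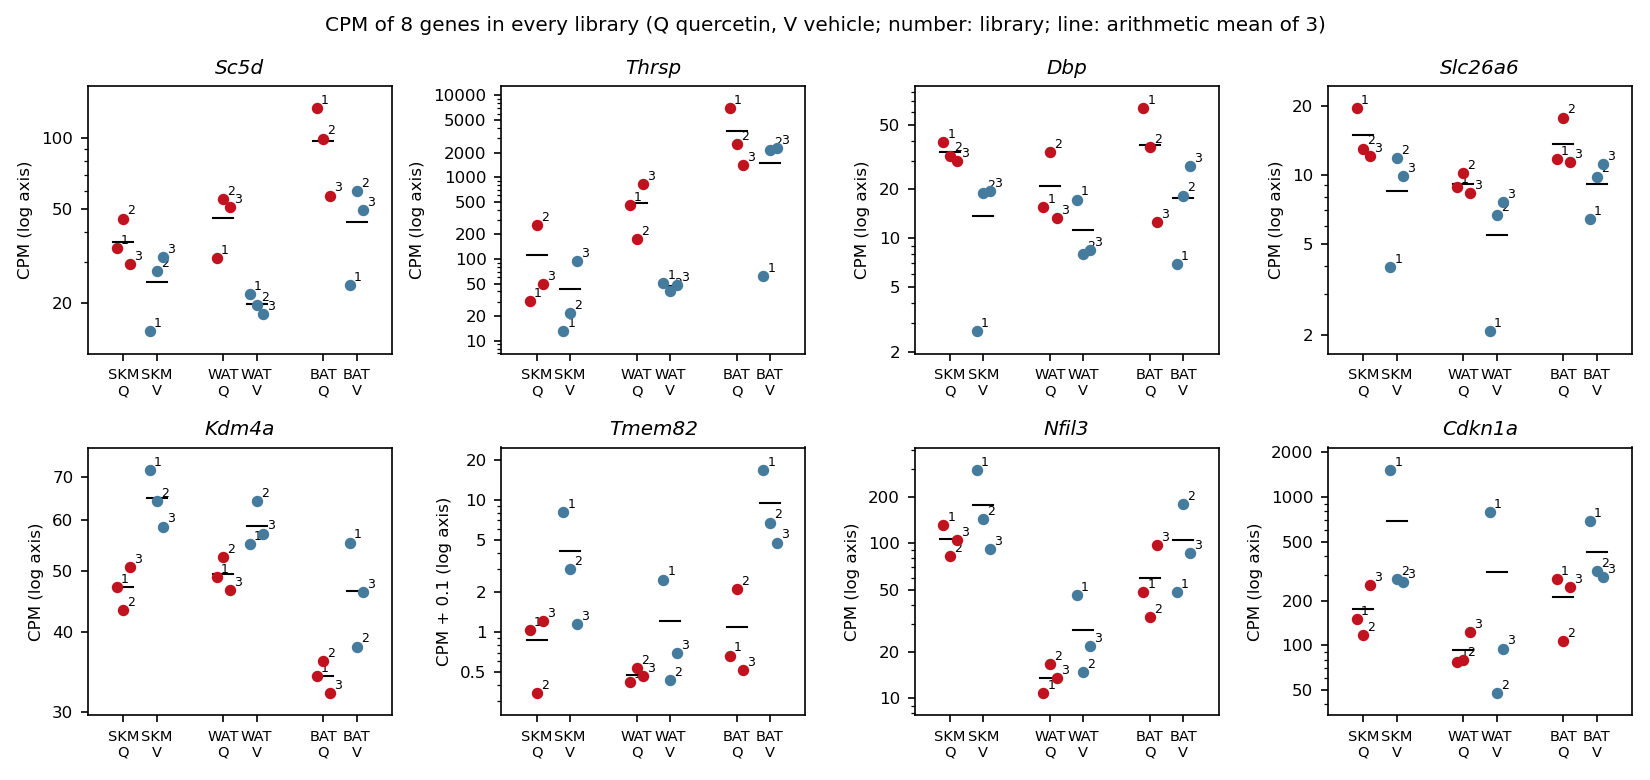
CPM (y axis, log scale; 0.1 added for Tmem82) of 8 genes in each library of muscle (SKM), white fat (WAT) and brown fat (BAT), with quercetin (Q, red) left of vehicle (V, blue), the library number beside each point and a line at the mean of 3. Sc5d, Thrsp, Dbp and Slc26a6 have higher quercetin means and Kdm4a, Tmem82, Nfil3 and Cdkn1a lower ones in each tissue, and vehicle 1 is often the most extreme vehicle point, as at 2.68 CPM of Dbp and 1526 CPM of Cdkn1a in muscle.

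Other genes with small p and a higher estimate had varied roles, and none passed (edgeR adjusted p = 0.801 for each). Tuba8, an alpha-tubulin, was at 257.5, 340.0 and 425.5 CPM in quercetin muscle, against 183, 239.6 and 189 CPM in vehicle muscle. Brown fat held it at 92.5, 86.7 and 66.9 CPM with quercetin, against 26.3, 47.7 and 47.3 CPM with vehicle. The arms of Tuba8 did not overlap in these 2 tissues and overlapped in white fat, and its common log2 fold change was 0.81 ± 0.19. Zfp467, a zinc finger protein, had 0.65 ± 0.17, and in white fat its arms overlapped through vehicle 1 at 22.8 CPM. Gstt1, a glutathione S-transferase that conjugates electrophiles, was at 29.4, 38.1 and 30.4 CPM in quercetin white fat, against 18.8, 13.0 and 19.4 CPM in vehicle white fat. Its level in brown fat was 24.5, 13.9 and 24.6 CPM with quercetin, against 7.82, 9.68 and 13.1 CPM with vehicle, so its arms were apart in both fats, with a common log2 fold change of 0.89 ± 0.23. Akr1c14, a hydroxysteroid dehydrogenase, had 1.25 ± 0.34 at 0.424 to 4.59 CPM with quercetin and 0.144 to 1.51 CPM with vehicle. Sept4, a septin of the cytoskeleton, had 0.95 ± 0.26, and 0.64 without vehicle 1. Mrgprf, an orphan G protein-coupled receptor, had 1.94 ± 0.54 and was highest in white fat quercetin 2 at 25.1 CPM. Plpp7 had 1.36 ± 0.39, Pkdcc, a secreted kinase of extracellular proteins, 0.71 ± 0.20 and Fsd2 1.29 ± 0.37.

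Fgg and Ttr, which the liver makes for blood plasma, also had small p, from very few reads. Fgg, the fibrinogen gamma chain, was at 0.159, 0.803 and 7.32 CPM in quercetin white fat, against 0.218, 0 and 0 CPM in vehicle white fat. In brown fat it was at 7.07, 0.506 and 0.104 CPM with quercetin, against 0.10, 0 and 0 CPM with vehicle. Ttr, the transthyretin that carries thyroid hormone, reached 9.90 CPM in brown fat quercetin 1 and 1.88 CPM in white fat quercetin 3, against at most 0.116 CPM in any vehicle library. Both were at 0 in all quercetin muscle libraries. A single quercetin library of each fat held most of the reads, and the fitted fold changes of such genes depend on the prior count. Summed over 8 genes of liver-made plasma proteins, a set chosen after these values were seen, the levels were 21.5, 18.5 and 65.5 CPM in quercetin white fat, against 10.6, 1.501 and 8.64 CPM in vehicle white fat. In brown fat the sums were 164 CPM, 10.8 CPM and 9.51 CPM with quercetin, against 1.30, 2.46 and 1.67 CPM with vehicle. In muscle they were 0.628, 1.61 and 0.418 CPM with quercetin, against 0.232, 0.481 and 4.20 CPM with vehicle, so the arms stood apart in both fats and not in muscle. Where these reads come from was not tested.

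Of the genes with a lower estimate, Tmem82, a membrane protein (ENSMUSG00000043085, chromosome 4, 141613376 to 141618633), had the smallest p of all genes tested. In muscle it was at 0.941, 0.248 and 1.11 CPM with quercetin, against 8.03, 2.89 and 1.05 CPM with vehicle. White fat held it at 0.318, 0.438 and 0.362 CPM with quercetin, against 2.40, 0.334 and 0.596 CPM with vehicle. Brown fat held it at 0.566, 2.02 and 0.418 CPM with quercetin, against 16.8, 6.65 and 4.67 CPM with vehicle. The arms were apart in brown fat only, and vehicle 1 was the highest library in every tissue. The log2 fold change was -2.40 ± 0.54 (edgeR adjusted p = 0.801), and -1.49 without vehicle 1. Slc25a34, a mitochondrial carrier, lies beside Tmem82 on chromosome 4 (141618824 to 141623821), both on the minus strand. Whether these neighbours share reads or transcription was not tested. Slc25a34 was at 0.477 to 0.949 CPM in quercetin white fat, against 40.1, 1.08 and 1.34 CPM in vehicle white fat. Its level in brown fat was 11.4 to 22.4 CPM with quercetin, against 88.3 to 160.0 CPM with vehicle, and its common estimate was -2.46 ± 0.68, or -1.18 without vehicle 1. Fam71f2 had -3.31 ± 0.89, with 1.75, 13.6 and 3.31 CPM in the vehicle 1 libraries of muscle, white fat and brown fat, against at most 0.477 CPM in any quercetin library and at most 0.447 CPM in the other vehicle libraries. The nonagouti gene a, whose product blocks melanocortin receptors, had -3.04 ± 0.83 and was likewise highest in vehicle 1 in each tissue. Neither Fam71f2 nor a had enough counts to be tested without vehicle 1.

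A further group of genes had smaller differences, and some of these shrank without vehicle 1. Kdm4a, a demethylase of histone H3 (ENSMUSG00000033326, chromosome 4, 118136957 to 118180043), was at 47.1, 43.4 and 50.7 CPM in quercetin muscle, against 71.9, 64.2 and 58.6 CPM in vehicle muscle. Its level in white fat was 48.9, 52.5 and 46.6 CPM with quercetin, against 55.1, 64.2 and 57.1 CPM with vehicle. In brown fat it was at 34.2, 36.0 and 32.2 CPM with quercetin, against 55.3, 38.0 and 46.2 CPM with vehicle. Its log2 fold change was -0.39 ± 0.11, and -0.35 without vehicle 1. Kdm4a and Slc26a6 were the 2 genes of 16388 (0.0122%) whose arms did not overlap in any tissue in 1 direction, 1 lower (0.00610%) and 1 higher (0.00610%), and since that chose them, it is given with no test. Slc26a6, an anion exchanger (ENSMUSG00000023259, chromosome 9, 108853283 to 108913049), was at 19.5, 13.0 and 12.1 CPM in quercetin muscle, against 3.96, 11.8 and 9.85 CPM in vehicle muscle. In white fat it was at 8.82, 10.1 and 8.33 CPM with quercetin, against 2.07, 6.68 and 7.60 CPM with vehicle, and in brown fat at 11.7, 17.8 and 11.4 CPM, against 6.41, 9.82 and 11.1 CPM. Its log2 fold change was 0.71 ± 0.26, and 0.38 without vehicle 1, the lowest library in every tissue. Atp6ap2, an accessory protein of the proton pump and receptor of prorenin, had -0.50 ± 0.14, with 31.2 to 50.8 CPM in quercetin libraries and 40.8 to 81.9 CPM in vehicle libraries. Rapgef5, an exchange factor of Rap GTPases, had -0.78 ± 0.20, Erbin, an adaptor that binds the receptor ERBB2, -0.85 ± 0.25, and Zfp422 -0.68 ± 0.20. Without vehicle 1, Erbin had -0.41 and Zfp422 -0.38, while Rapgef5 had -0.71.

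Signalling genes at low levels made up the rest. Ramp3, which partners the receptors of adrenomedullin and calcitonin gene-related peptide, was at 1.15, 2.73 and 1.81 CPM in quercetin muscle, against 3.03, 6.86 and 4.36 CPM in vehicle muscle. Brown fat held it at 4.24, 1.01 and 1.67 CPM with quercetin, against 4.61, 8.52 and 8.89 CPM with vehicle, with arms apart in both of these tissues. White fat quercetin 1, at 7.15 CPM, overlapped the vehicle arm. Ramp3 had a log2 fold change of -1.34 ± 0.38, and -1.58 without vehicle 1. Nts, the peptide neurotensin, had -1.91 ± 0.52, and -2.19 without vehicle 1, at no more than 0.724 CPM with quercetin and up to 4.42 CPM with vehicle. Drd1, a dopamine receptor, had -2.09 ± 0.59 at no more than 0.507 CPM with quercetin and up to 2.29 CPM with vehicle.

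**Figure D3:**
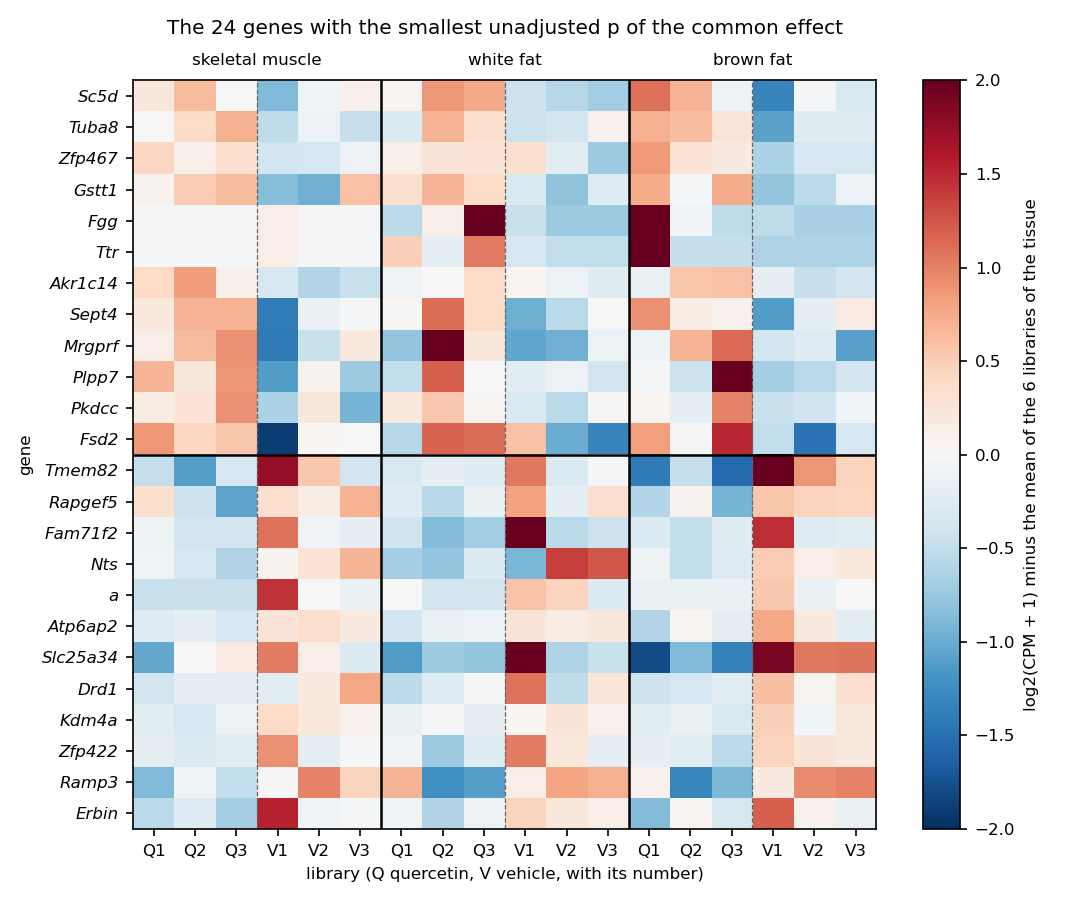
Log2(CPM + 1) of the 24 genes with the smallest unadjusted p of the common effect (rows; 12 higher above the line, 12 lower below), minus the mean of the 6 libraries of the tissue, in each library (columns; quercetin Q1 to Q3 left of vehicle V1 to V3 in each tissue). Tmem82, Fam71f2 and Slc25a34 have dark cells in vehicle 1, and Fgg and Ttr in single quercetin libraries of the fats.

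Genes of sterol synthesis had mostly higher estimates. Of 22 tested members, 19 were higher and 3 lower, and the median log2 fold change was 0.40, beside 52.0% higher and a median of 0.02 over all genes. By tissue the median was 0.31 in muscle, 0.44 in white fat and 0.53 in brown fat. No member passed, and 3 had an unadjusted p under 0.05 in edgeR, all higher, beside 2.31% of all genes: Sc5d, Mvk (0.68 ± 0.28), the mevalonate kinase of the early pathway, and Tm7sf2 (0.53 ± 0.24), a sterol reductase that was named for that p. Without vehicle 1, 17 of 22 were higher and the median was 0.22. Members outside the naming rule, picked for their role after the values were seen, showed both sizes: Nsdhl and Dhcr7, enzymes of the late pathway, had 0.66 ± 0.32 and 0.74 ± 0.47, while Hmgcs1, an enzyme of the early pathway, had 0.08 ± 0.31. The mean log2 CPM of the list was 3.77, 3.89 and 3.57 in quercetin muscle, against 2.73, 3.48 and 3.90 in vehicle muscle. In white fat it was 4.22, 4.39 and 4.64 with quercetin, against 4.03, 4.02 and 3.94 with vehicle, and in brown fat 5.98, 5.17 and 4.70, against 4.21, 5.34 and 4.95. The arms were apart in white fat and overlapped in the other tissues, where vehicle 1 was the lowest library.

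Promoters of 3 members are shown because 19 of the 22 had higher estimates and because SREBP is known to act at such genes together with the CCAAT-binding factor NF-Y. Windows of 250 bases before to 50 after the start (RefSeq, build GRCm38.p6) were found for 16 of the 22 tested members. Capitals mark CCAAT on either strand (ATTGG on the printed one), the E-box CACGTG and the sterol response element TCACNCCAC, where they occur. The windows are chr9:42264251-42264550 on the minus strand for Sc5d, the member with the smallest p, chr5:114444019-114444318 on the plus strand for Mvk, and chr13:119690101-119690400 on the plus strand for Hmgcs1, the first enzyme of the list.
Sc5d: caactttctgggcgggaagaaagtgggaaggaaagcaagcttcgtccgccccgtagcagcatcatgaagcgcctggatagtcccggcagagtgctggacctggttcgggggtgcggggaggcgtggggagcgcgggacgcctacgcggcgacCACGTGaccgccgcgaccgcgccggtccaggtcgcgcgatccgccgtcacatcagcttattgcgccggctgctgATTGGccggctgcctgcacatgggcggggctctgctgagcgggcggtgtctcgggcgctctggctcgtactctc
Mvk: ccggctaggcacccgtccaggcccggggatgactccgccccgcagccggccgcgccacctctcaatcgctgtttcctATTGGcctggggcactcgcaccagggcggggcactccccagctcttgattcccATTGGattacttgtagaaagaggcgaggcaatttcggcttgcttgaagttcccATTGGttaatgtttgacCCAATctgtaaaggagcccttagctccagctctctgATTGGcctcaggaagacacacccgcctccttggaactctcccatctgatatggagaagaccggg
Hmgcs1: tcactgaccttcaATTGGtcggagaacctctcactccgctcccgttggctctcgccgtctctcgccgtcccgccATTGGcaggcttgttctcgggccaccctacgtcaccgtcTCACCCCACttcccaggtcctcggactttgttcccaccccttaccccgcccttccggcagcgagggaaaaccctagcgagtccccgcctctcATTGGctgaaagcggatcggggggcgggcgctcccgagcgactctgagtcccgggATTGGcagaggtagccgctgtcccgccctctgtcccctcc
CCAAT occurred in 16 of the 16 windows, against 37.4% of 32851 promoters (41.1% of 27025 genes). CACGTG occurred in 4, among them that of Sc5d, against 7.15% of promoters, and TCACNCCAC in 1, that of Hmgcs1, against 1.24%. Mvk has 5 CCAAT matches and Hmgcs1 has 4. A match is a description of the letters.

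Fatty acid and triglyceride synthesis genes had the larger estimates of the lipid lists. Of 26 tested, 22 were higher and 4 lower (median 0.64), and 24 were higher without vehicle 1 (median 0.55). No member passed, and 5 had an unadjusted p under 0.05, all higher, beside 2.31% of all genes. Thrsp, a nuclear protein that promotes lipogenesis, was at 30.5, 259 and 49.1 CPM in quercetin muscle, against 13.0, 21.5 and 94.9 CPM in vehicle muscle. White fat held it at 456, 173 and 821 CPM with quercetin, against 50.04, 40.2 and 48.2 CPM with vehicle. Its level in brown fat was 6956, 2548 and 1397 CPM with quercetin, against 61.2, 2141 and 2272 CPM with vehicle. The arms of Thrsp were apart in white fat only, and its common log2 fold change was 1.99 ± 0.68 (edgeR adjusted p = 0.801), or 1.54 without vehicle 1. Angptl8, a secreted inhibitor of lipoprotein lipase that feeding induces, was at 5.16, 5.62 and 10.1 CPM in quercetin white fat, against 1.09, 0.751 and 0.745 CPM in vehicle white fat. It had 1.52 ± 0.62, and 1.16 without vehicle 1. Pnpla3 (1.83 ± 0.79), Acss2 (0.94 ± 0.42) and Me1 (0.79 ± 0.37), picked for an unadjusted p under 0.05, complete the 5. Fasn, the fatty acid synthase, had 0.85 ± 0.80, Acly, which makes its acetyl-CoA, 0.93 ± 0.51, and Scd1, the main desaturase, had a 95% interval of -1.63 to 1.63. These 3 were picked for their role after the values were seen.

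Genes of fat breakdown and of mitochondria were mixed. Of 18 lipolysis and lipid droplet genes, 5 were higher and 13 lower (median -0.40), but 13 were higher without vehicle 1 (median 0.17). Plin2, a coat protein of lipid droplets, had -0.82 ± 0.44, or -0.15 without vehicle 1, and Gpihbp1, which anchors lipoprotein lipase, -1.29 ± 0.62, with 1389 CPM in white fat vehicle 1 and at most 135 CPM in the other white fat libraries. Gpihbp1 turned to 0.20 without vehicle 1. Fatty acid oxidation genes were higher in 12 of 24 (median 0.03), and in 20 of 24 without vehicle 1 (median 0.20). Acot2, a mitochondrial thioesterase, had -1.84 ± 0.60 with 469 and 640 CPM in vehicle 1 of muscle and brown fat, and -0.08 without it. Ehhadh, a peroxisomal enzyme, had -1.24 ± 0.69, and -0.11 without vehicle 1. Nuclear genes of the respiratory chain were higher in 37 of 40 by small amounts (median 0.19), and in 36 without vehicle 1 (median 0.10). Ndufs8 of complex I had 0.34 ± 0.23 and Sdhb of complex II 0.34 ± 0.24, with 0.11 and 0.20 without vehicle 1. Mitochondrially encoded genes were higher in 7 of 13 (median 0.06), and in 9 of 13 without vehicle 1 (median 0.04). Glycolysis genes were higher in 13 of 20 (median 0.21), with Tpi1 at 0.47 ± 0.26, or 0.31 without vehicle 1. Sirtuin and NAD genes were higher in 11 of 15 (median 0.06), and in 7 of 15 without vehicle 1 (median -0.03). Sirt1, a deacetylase often named with polyphenols, had -0.24 ± 0.20.

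**Figure D4:**
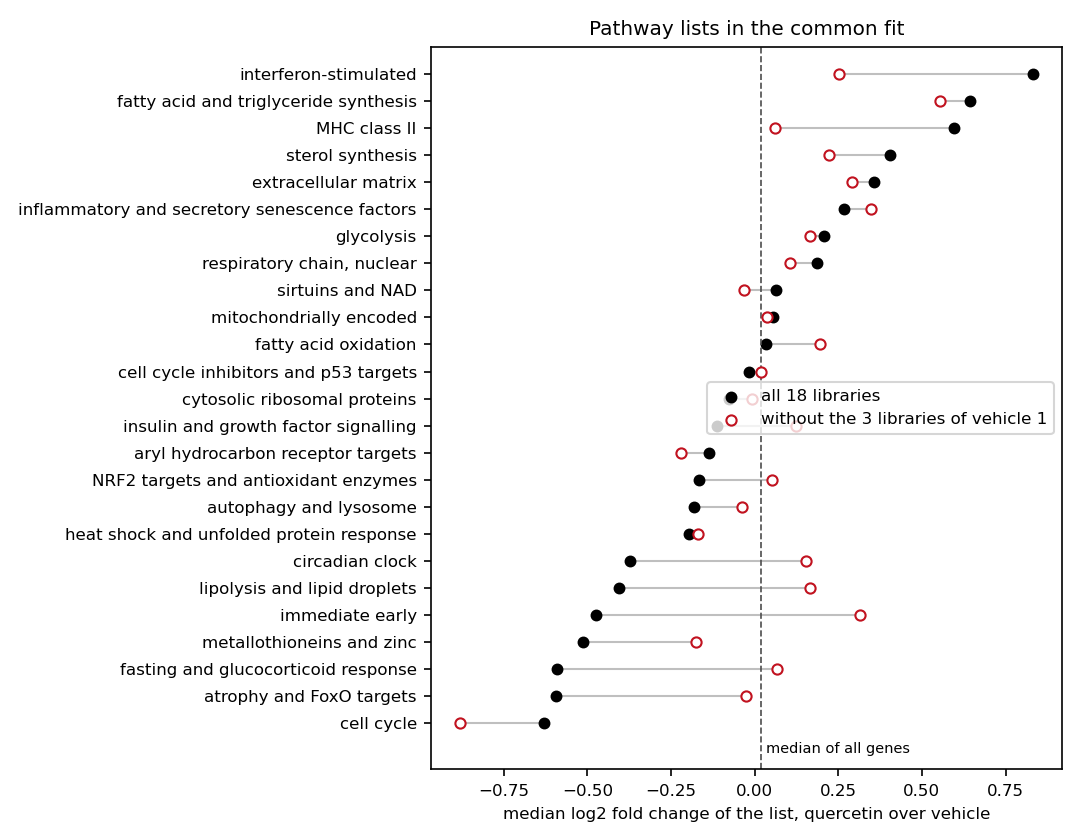
Median log2 fold change, quercetin over vehicle (x axis), of the members of each pathway list (rows) in the common fit of all 18 libraries (filled) and without the 3 libraries of vehicle 1 (open); the dashed line is the median of all genes, 0.02. Lists of fasting, lipolysis, immediate early and circadian genes lie below the line with all libraries and above it without vehicle 1, while the 2 lists of fat and sterol synthesis stay above.

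Stress and catabolic lists had lower estimates that shrank or turned without vehicle 1. Fasting and glucocorticoid response genes were lower in 19 of 20 (median -0.59), with 7 members at an unadjusted p under 0.05, all lower, beside 3.57% of all genes, and 0 passing. Without vehicle 1, 13 of 20 were higher (median 0.07). Cdkn1a, the cell cycle inhibitor p21 and a target of p53 and FoxO, was at 151, 117 and 256.5 CPM in quercetin muscle, against 1526, 281.7 and 266.7 CPM in vehicle muscle. Its level in white fat was 77.2, 79.9 and 123 CPM with quercetin, against 789.6, 48.0 and 95.1 CPM with vehicle, and in brown fat it was 280.1, 107 and 247 CPM, against 685, 315 and 288 CPM. The arms of Cdkn1a were apart in muscle and brown fat, and its log2 fold change was -1.58 ± 0.50, or -0.29 without vehicle 1. Irs2, an insulin receptor substrate that insulin represses, had -1.30 ± 0.48, and -0.54 without vehicle 1. Pdk4, which holds back glucose oxidation in fasting, had -1.38 ± 0.63, and 0.02 without vehicle 1. Atrophy and FoxO target genes were lower in 17 of 21 (median -0.59), and in 11 of 21 without vehicle 1 (median -0.03). Psmd11, a proteasome subunit, had -0.73 ± 0.29 and Fbxo31, a ubiquitin ligase subunit, -0.88 ± 0.37, with 749.5 and 1734 CPM in muscle vehicle 1, against at most 170.0 and 276 CPM in the other muscle libraries. Without vehicle 1 Psmd11 had -0.18 and Fbxo31 -0.38. Of 32 autophagy and lysosome genes, 23 were lower (median -0.18; -0.04 without vehicle 1), with Atp6v1h at -0.81 ± 0.32 and Bnip3l at -0.71 ± 0.28, or -0.30 and -0.21 without vehicle 1. Of 24 immediate early genes, 20 were lower (median -0.48) and 18 higher without vehicle 1 (median 0.31), with Atf3 at -1.49 ± 0.58, or -0.86 without vehicle 1, and Egr2, opposite in sign, at 1.65 ± 0.64.

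**Figure D5:**
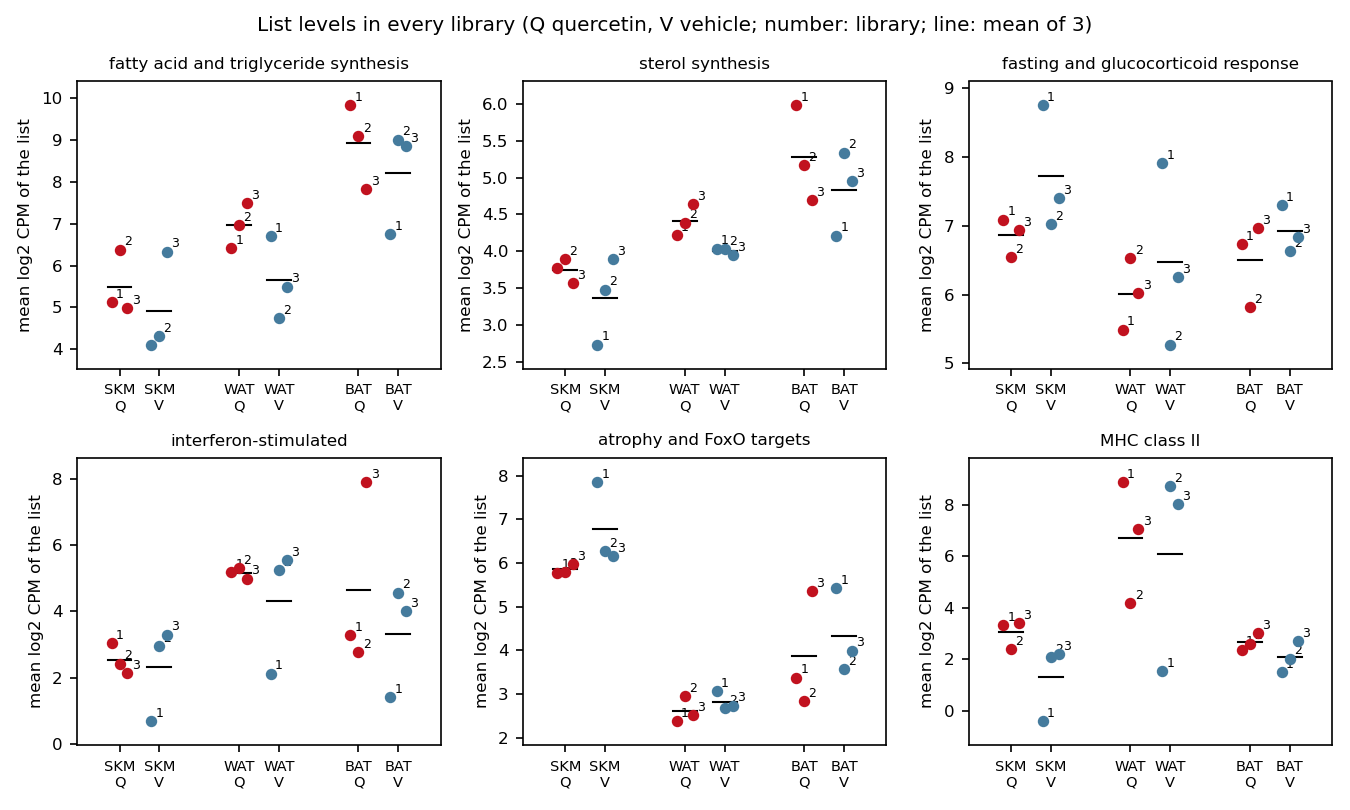
Mean log2 CPM (y axis) of 6 gene lists in each library of muscle (SKM), white fat (WAT) and brown fat (BAT), with quercetin (Q, red) left of vehicle (V, blue), the library number beside each point and a line at the mean of 3. Vehicle 1 is the highest library of each tissue for fasting genes, from 7.31 to 8.75, and the lowest for interferon genes, and brown fat quercetin 3 is highest for interferon genes at 7.90.

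Among clock genes, Dbp had higher and Nfil3 lower estimates in each tissue. Dbp, an output activator of the clock, was at 39.2, 32.4 and 29.9 CPM in quercetin muscle, against 2.68, 18.9 and 19.5 CPM in vehicle muscle. In white fat it was at 15.5, 34.1 and 13.4 CPM with quercetin, against 17.3, 8.01 and 8.42 CPM with vehicle. In brown fat it was at 63.2, 36.5 and 12.5 CPM with quercetin, against 6.92, 18.4 and 28.0 CPM with vehicle. The tissue estimates were 1.30, 0.90 and 1.07 in muscle, white fat and brown fat, with arms apart in muscle only, and the common one was 1.09 ± 0.38, or 0.92 without vehicle 1. Nfil3, the repressor that binds the same sites as Dbp, had -0.85 ± 0.30, with -0.74, -1.01 and -0.81 in the tissues in that order, and -0.59 without vehicle 1. Of 19 clock genes, 14 were lower (median -0.37), and 11 were higher without vehicle 1 (median 0.15). The hour of tissue collection is not given in the labels, and its part in these values was not tested.

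Genes of the responses for which quercetin is known had mostly lower estimates. NRF2 target and antioxidant genes were lower in 21 of 26 (median -0.17), with 16 of 26 higher without vehicle 1 (median 0.05). Hmox1, the heme oxygenase, was at 25.7, 42.9 and 24.9 CPM in quercetin muscle, against 24.0, 67.0 and 69.8 CPM in vehicle muscle. In white fat it was at 65.5, 148 and 55.3 CPM with quercetin, against 181, 73.6 and 199 CPM with vehicle, and in brown fat at 19.2, 67.2 and 230.4 CPM, against 167, 290.5 and 207 CPM. The arms of Hmox1 overlapped in every tissue, and its log2 fold change was -0.87 ± 0.38, or -1.003 without vehicle 1 (edgeR adjusted p = 0.801 with all libraries). Nfe2l2, which encodes NRF2, had -0.44 ± 0.19, or -0.22 without vehicle 1, and Nqo1, a quinone reductase of that response, -0.86 ± 0.68, which turned to 0.72 without vehicle 1. Of 9 tested genes of the aryl hydrocarbon receptor list, 6 were lower (median -0.14; -0.22 without vehicle 1), with Tiparp, a feedback inhibitor of the receptor, at -0.49 ± 0.18 and Cyp1b1 at -0.52 ± 0.43. Metallothionein and zinc genes were lower in 6 of 8 (median -0.51), and in 5 of 8 without vehicle 1 (median -0.18), with Slc30a1 at -0.88 ± 0.33, or -0.34 without vehicle 1, Slc39a14 at -1.28 ± 0.57 and Mt1, a metallothionein, at -0.79 ± 0.81. Heat shock and unfolded protein genes were lower in 23 of 31 (median -0.20), with Bag3 at -0.89 ± 0.39 and Dnajb9 at -0.53 ± 0.23, or -0.56 and -0.34 without vehicle 1.

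Senescence and growth lists had small medians. Cell cycle inhibitors and p53 targets were higher in 10 of 21 (median -0.02), and in 14 of 21 without vehicle 1 (median 0.02), and Trp53inp1 had -0.99 ± 0.45, or -0.34 without vehicle 1. Inflammatory and secretory senescence factors were higher in 19 of 31 (median 0.27), and in 10 of 31 (median -0.32) without muscle quercetin 2, white fat vehicle 2 and brown fat quercetin 3. Among them Il1b had 1.09 ± 0.46 and was highest in brown fat quercetin 3 at 23.0 CPM and in white fat quercetin 2 at 20.3 CPM. Igfbp3, a carrier of insulin-like growth factors, was at 79.9, 81.1 and 54.3 CPM in quercetin white fat, against 507, 93.3 and 99.2 CPM in vehicle white fat. Brown fat held it at 34.1, 46.9 and 52.3 CPM with quercetin, against 231, 120.1 and 96.8 CPM with vehicle, and the arms were apart in both fats. Its log2 fold change was -1.23 ± 0.37, and -0.50 without vehicle 1. Insulin and growth factor signalling genes were lower in 13 of 21 (median -0.11), while 12 of 21 were higher without vehicle 1 (median 0.12). Of 59 genes of cytosolic ribosomal proteins, 48 were lower (median -0.08), and 31 without vehicle 1 (median -0.0089). By tissue their median was -0.36 in muscle, -0.15 in white fat and 0.30 in brown fat. Only 2 of the 59 were lower in all 3 tissues, beside 17.7% of all genes. Rpl3 had -0.31 ± 0.21 and Rplp2 -0.28 ± 0.26, or -0.23 and -0.18 without vehicle 1, genes whose counts may be split with pseudogenes.

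Immune and proliferation lists had large medians that moved with a few libraries. All 28 interferon-stimulated genes had higher estimates (median 0.83), 0 of them with an unadjusted p under 0.05. By tissue the median was -0.13 in muscle, 0.28 in white fat and 2.71 in brown fat. Only 6 of the 28 were higher in all 3 tissues, beside 20.5% of all genes. The common median was 0.25 without vehicle 1, and -0.03, with 11 of 28 higher, without muscle quercetin 2, white fat vehicle 2 and brown fat quercetin 3. Mx1 and Usp18 were at 88.1 and 196 CPM in brown fat quercetin 3, against at most 3.32 and 12.4 CPM in the other brown fat libraries. Their log2 fold changes were 1.71 ± 1.02 and 1.29 ± 0.78, or 1.05 and 0.66 without vehicle 1. MHC class II genes were higher in 10 of 10 (median 0.59), and in 7 of 10 without vehicle 1 (median 0.06). Their tissue medians were 1.37 in muscle, -0.095 in white fat and 0.58 in brown fat, with 2 of 10 higher in all 3 tissues. H2-Aa was at 1694, 189 and 459 CPM in quercetin white fat, against 19.6, 1379 and 935 CPM in vehicle white fat, so its arms overlapped there. Cell cycle genes were lower in 29 of 30 (median -0.63), and in 30 of 30 without vehicle 1 (median -0.88). By tissue their median was -0.01 in muscle, -1.12 in white fat and -0.86 in brown fat. Without muscle quercetin 2, white fat vehicle 2 and brown fat quercetin 3, 17 of 30 were lower (median -0.03). Bub1b, a mitotic checkpoint kinase, was at 41.9 CPM in white fat vehicle 2 and at most 15.8 CPM in every other library. Markers of T cells were higher in 12 of 12 (median 0.59), of B and plasma cells in 13 of 15 (median 0.33), of macrophages in 17 of 22 (median 0.18) and of neutrophils in 7 of 8 tested (median 0.90). In muscle, white fat and brown fat the medians were 1.52, 0.31 and 0.37 for T cells and 2.29, -0.27 and 0.44 for B and plasma cells. In that order they were 0.70, 0.02 and -0.42 for macrophages and -0.16, 1.41 and 1.09 for neutrophils. Without muscle quercetin 2, white fat vehicle 2 and brown fat quercetin 3, neutrophil markers were higher in 4 of 9 tested (median -0.20), macrophage markers in 15 of 22 (median 0.12), and T cell and B and plasma cell markers in 12 of 12 (median 0.79) and 15 of 15 (median 0.76). Without vehicle 1, T cell markers were higher in 9 of 12 (median 0.19) and B and plasma cell markers in 7 of 15 (median -0.14). The part of lymphoid, muscle or other tissue in these values was not tested.

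Among the cells of the tissue itself, fibroblast and nerve markers had higher and endothelial markers lower estimates. Fibroblast markers were higher in 18 of 18 (median 0.50), and in 15 of 18 without vehicle 1 (median 0.47), with Abca8a at 0.72 ± 0.28. Extracellular matrix genes were higher in 17 of 28 (median 0.36), with Col5a1 at 0.73 ± 0.43 and Eln at -0.77 ± 0.41, which was -0.02 without vehicle 1. The median of the matrix list was 0.17 without muscle quercetin 2, white fat vehicle 2 and brown fat quercetin 3. Peripheral nerve markers were higher in 14 of 14, with all libraries (median 0.57) and without vehicle 1 (median 0.49). They were higher in 9 of 14 (median 0.45) without muscle quercetin 2, white fat vehicle 2 and brown fat quercetin 3. Among them S100b, a glial calcium-binding protein, had 0.87 ± 0.43. Endothelial markers were lower in 17 of 20 (median -0.49), and 14 of 20 were higher without vehicle 1 (median 0.08). Cldn5, a tight junction protein, had -1.22 ± 0.50, with -2.41 in muscle, -1.29 in white fat and 0.05 in brown fat, and a common -0.63 without vehicle 1. Red blood cell genes were lower in 5 of 5 tested (median -0.99; -0.34 without vehicle 1), and mesothelial and epithelial genes were higher in 6 of 7 tested (median 1.09; 0.74 without vehicle 1). Without muscle quercetin 2, white fat vehicle 2 and brown fat quercetin 3, 4 of 6 tested were higher (median 0.20). Pericyte and smooth muscle markers were higher in 9 of 12 (median 0.07; 0.40 without vehicle 1), and in 3 of 13 without those 3 libraries (median -0.11). Adipocyte markers were higher in 10 of 20 (median -0.05), brown adipocyte markers in 10 of 17 (median 0.03), fast-twitch muscle genes in 8 of 19 (median -0.03) and slow-twitch muscle genes in 4 of 10 (median -0.15). Without vehicle 1 the medians were 0.14 for adipocyte, 0.07 for brown adipocyte, -0.42 for fast-twitch and -0.28 for slow-twitch genes, and without those 3 libraries -0.65, 0.18, -0.80 and -1.63. With all libraries, the fast-twitch median was 0.32 in muscle, -3.41 in white fat and 2.15 in brown fat. The slow-twitch medians were -1.53, -1.56 and 2.78 in that order.

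No tissue dependence passed either. In the edgeR test of whether the 3 tissue effects differ, 0 of 16388 genes passed (0%), with 146 at an unadjusted p under 0.05 (0.891%), and DESeq2 gave 0 passing genes and 244. The smallest p were those of Igkv3-2, an antibody light chain segment whose reads near copies may share, Cd200, Prrt3, Lpar3 and Cfi. Cd200, a membrane glycoprotein that restrains macrophages, was at 28.5, 38.2 and 27.3 CPM in quercetin muscle, against 23.8, 21.3 and 23.0 CPM in vehicle muscle. Its level in white fat was 24.0, 26.6 and 24.6 CPM with quercetin, against 39.8, 40.1 and 32.0 CPM with vehicle, and in brown fat it was 34.5, 22.2 and 38.0 CPM, against 19.7, 9.54 and 15.2 CPM. The arms of Cd200 were apart in every tissue, higher with quercetin in muscle and brown fat and lower in white fat, with tissue estimates of 0.47, 1.09 and -0.58. Prrt3 was at 0.209, 0.372 and 0 CPM in quercetin muscle, against 2.56, 2.53 and 2.18 CPM in vehicle muscle, and lay between 0.327 and 0.902 CPM in every fat library. Lpar3, a receptor of lysophosphatidic acid, was at 0.418, 0.248 and 0.139 CPM in quercetin muscle, against 0 CPM in each vehicle muscle library. The opposite held in white fat, with arms apart at 0.715, 0.511 and 0.290 CPM with quercetin, against 2.29, 1.59 and 1.71 CPM with vehicle. Across genes, the pairs of tissue effects correlated with Pearson's r of 0.08 for muscle and white fat, 0.13 for muscle and brown fat and 0.14 for both fats (Spearman's rho 0.20, 0.22 and 0.26). Genes are not independent replicates, and if equal numbers mark 1 mouse, these effects also share their mice.

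The remaining genes of interest had intervals on both sides of 0. Ppargc1a, the coactivator of mitochondrial genes, had a common log2 fold change of 0.02 (95% interval -0.91 to 0.95), with 0.30 in muscle, 1.13 in white fat and -1.25 in brown fat. Lep, the hormone leptin, had 0.61 (-1.63 to 2.85), and Per2, a clock repressor, -0.39 (-1.01 to 0.22). Without vehicle 1, Ppargc1a had -0.30 and Per2 -0.04. Sirt1 had -0.66 to 0.17 as its interval, Cyp1b1 -1.43 to 0.39, Nqo1 -2.30 to 0.58 and Mt1 -2.50 to 0.92.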

How the data were processed

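Transcripts were measured by RNA sequencing in 18 libraries. The deposited files hold raw counts per Ensembl gene. The tools named in the submitters' processing notes are HISAT2, HTSeq and DESeq2, with build mm10. Their versions and the strand setting are not stated there, so reads of overlapping or antisense genes cannot be told apart. The 5 summary lines were dropped; reads without a feature made up 2.53 to 9.11% of each library and ambiguous reads 6.47 to 9.84%. Of 53465 genes, 53360 had a symbol in GENCODE M21 (GRCm38). Replicates differed by a chi-square per degree of freedom of 27.0 or more, so no library was a copy.

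Counts were fitted in edgeR 4.0.16 (R 4.3.3) with filterByExpr (minimum count 10, total 15), TMM, tissue as a block and 1 treatment term, tested two-sided by quasi-likelihood F with Benjamini-Hochberg adjustment over 16388 genes and a threshold of 0.05. Tissue dependence was tested in a fit of group means. Fold changes are quercetin over vehicle on the log2 scale, with SE from the fit; CPM are scaled by TMM across all 18 libraries. Alternatives used DESeq2 1.42.0 and limma 3.58.1, other scalings and left-out libraries. The code was tested on simulated data.

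Libraries of equal arm and number had a median correlation of deviations across tissues of 0.116 over 18 pairs (range -0.136 to 0.298), against -0.026 for other numbers. By arm, the range was 0.053 to 0.298 for vehicle and -0.136 to 0.149 for quercetin, so only the vehicle pairs were all above 0. Libraries of equal arm and number were therefore also treated as a correlation block.

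The members and gene lists were chosen with earlier results of these data known; lists are described by counts and medians, without a test. Named genes are the 12 higher and 12 lower genes with the smallest p, the 2 members of each list that had the smallest p, genes whose arms do not overlap in any tissue, the 5 with the smallest p of tissue dependence and a panel of 10. Some items are not reported here.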

Additional observations from a re-analysis of the deposited data

Results flagged for a closer look

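Each value here is a library's level minus the mean of its tissue, compared with the other libraries of its arm in all 3 tissues (9 per arm). Of 296 comparisons, 39 had a lowest or highest library far from its neighbours. The cut-off is one that about 1 in 20 sets of independent normal values would pass. Here the 9 values come from 3 tissues, and lists stand beside their own members, so the 39 cannot be set against that rate. The levels are mean log2 CPM for lists and log2(CPM + 1) for genes.

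White fat quercetin 2 was far from the other quercetin libraries for cell cycle genes (-1.92), T cell markers (-3.87) and B and plasma cell markers (-4.90). Its single genes were Bub1b (-1.82), Rrm2 (-2.37), Trbc2 (-3.67), Cd3d (-3.63), Cd79a (-5.17), Fbxo31 (0.64) and Eln (1.03). Brown fat quercetin 3 was far from them for interferon-stimulated genes (3.91) and sirtuin and NAD genes (-0.53), and for Mx1 (4.49), Usp18 (4.03), Casq2 (2.91), mt-Nd5 (-1.40) and Ppargc1a (-2.34). Brown fat quercetin 1 was high in Zfp467 (0.86) and Ttr (2.82), muscle quercetin 1 in Alas2 (0.85), and muscle quercetin 3 low in Nfe2l2 (-0.87).

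White fat vehicle 1 was far from the other vehicle libraries for endothelial markers (2.13) and T cell markers (-4.67), and for Slc30a1 (1.96), Kcnj8 (1.17), Trbc2 (-4.24), Cd3d (-4.07) and Cd79a (-5.52). Muscle vehicle 1 was high in Fbxo31 (2.29), Atp6v1h (2.06), Psmd11 (1.99), Bnip3l (1.92), a (1.44) and Cfi (1.12), and low in Tpi1 (-1.50) and Krt19 (-1.18). Brown fat vehicle 1 was low in Thrsp (-4.49) and Tuba8 (-1.07), and white fat vehicle 2 in mt-Nd5 (-1.34). Outside the tested genes, the seminal vesicle genes summed to 29790 CPM in muscle quercetin 2, and to at most 0.584 CPM in each other library.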

How the results depend on the processing

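The count of genes passing for the common quercetin effect was 0 in 41 of 42 alternatives, and 5 in limma voom with library weights (1681 at an unadjusted p under 0.05), where Zfp467 was higher and Sema3f, AA467197, Inhbb and Ramp3 lower. For the tissue dependence of the quercetin effect it was 0 in 31 of 32, and 3 with those weights (Tmem56 and Gm2004 among them). Leaving out 1 library gave counts of 0 to 0 in both tests, with 649 to 1418 genes at an unadjusted p under 0.05 for the common effect. Leaving out 1 arm and number also gave 0 to 0, with 544 to 1675, the lowest without vehicle 1. With the library number as a replicate block within tissue, 0 genes passed and 564 had an unadjusted p under 0.05. Libraries of equal number in the other arm of a tissue did not deviate together (median correlation -0.118 over 9 pairs, -0.699 to 0.266). Whether the numbers pair the arms is not stated by the labels, and so few and spread correlations cannot decide it.

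Of 4542 log2 fold changes recomputed for named genes, 68 changed sign, in 24 genes, and the cause was not tested. With 1 library left out, the values were -0.26 to 0.60 for Cfi, -0.42 to 1.29 for Eno3, -0.00353 to 2.08 for Lep, -0.69 to 0.0354 for Lpar3 and -0.15 to 0.33 for Ppargc1a. Without vehicle 1 they were 0.20 for Gpihbp1, 0.00635 for mt-Nd6, 0.72 for Nqo1, 0.0163 for Pdk4, 0.25 for Pnpla2 and -0.30 for Ppargc1a. Without vehicle 2 they were -0.12 for Cfi and -0.0798 for Lep, and without vehicle 3 -0.47 for Cfi, 0.44 for Cyp1b1 and -0.18 for Ppargc1a. Leaving out quercetin 2 gave -0.25 for Ppargc1a, and leaving out quercetin 3 gave -0.48 for Eno3, -0.15 for Ighm, 0.14 for Lpar3 and -0.0465 for Mx1. Library weights gave -0.71 for Cd79a, -0.10 for Egr2, -0.84 for Eno3, -0.85 for Fcgr1, -0.74 for Has1, -0.37 for Igkv3-2, -0.12 for Il1b, 0.086 for Nqo1, 0.27 for Pdk4, 0.00439 for Per2, 0.12 for Pnpla2 and -0.0737 for Ppargc1a. Without muscle there was -0.13 for Ighm, -0.86 for Igkv3-2, 0.13 for Mt1 and -0.14 for Ppargc1a, without white fat 0.13 for Atp2a1 and -0.48 for Ppargc1a, and without brown fat -0.0753 for Cd200, -0.72 for Cfi, -0.25 for Eno3 and -0.13 for Lep. Without muscle quercetin 2, white fat vehicle 2 and brown fat quercetin 3 there was -0.0292 for Eno3 and -0.47 for Lep. The mean of the tissue effects was -0.39 for Cfi and 0.62 for Lpar3. Ppargc1a had -0.15 in 1 flow cell, -0.0158 with flow cell as a term, -0.16 in limma voom and -0.18 with the arm and number block, where Otop1 had -0.14. The median 95% interval reached 0.46 to either side among the most expressed 25% of genes and 1.29 among the least.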
